A study of Mus musculus with 12 samples.

Results

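Transcripts of 10 genes of JAK-STAT signalling and its feedback inhibitors were followed through the basophil lineage of C57BL/6J wild-type mice. They were the kinases Jak1 and Jak2, the transcription factors Stat3, Stat5a, Stat5b and Stat6, and the inhibitors Socs1, Socs2, Socs3 and Cish. The genes were chosen by name, with earlier results of these data known. All 10 were present among the 32227 genes of the count table and passed the filter that left 15083 genes for testing. The 12 bulk RNA sequencing libraries formed 4 groups of 3. CD34+ basophil progenitors (BaPs), CD34- pre-basophils with high CLEC12A and low CD9 (named immature basophils in the sample titles) and mature basophils with low CLEC12A and high CD9 were sorted from the bone marrow (BM). Mature basophils were also sorted from the spleen. No agent was given, and the labels do not state the age or sex of the animals. Each library pooled several animals, and n counts pools.

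Basophils are rare granulocytes whose growth and survival depend strongly on interleukin-3 (IL-3). Binding of IL-3 brings JAK2 molecules on the shared β chain of the receptor together, and the kinases phosphorylate STAT5, which enters the nucleus as a dimer and activates genes that include Cish and other inhibitors of the SOCS family. These inhibitors in turn bind receptors or kinases and dampen the signal. JAK1 serves receptors of interferons and of IL-4, IL-7 and IL-10, and STAT6 is the main factor downstream of IL-4 and IL-13.

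Levels are given in CPM, the counts of a gene set to a common library size after TMM scaling, which uses the trimmed mean of the log ratios between libraries. Library totals ran from 3596108 to 8151030 counts. In bulk samples, fewer cells of a type and less RNA per cell cannot be told apart. The library labelled BaP replicate 3 stood apart from the other BaP libraries. Its 8 basophil markers summed to 25390 CPM, against 63080 and 68460 CPM in replicates 1 and 2. Its 9 T and NK cell markers summed to 525 CPM against 14.6 and 16.5 CPM, its 8 B cell markers to 345 against 43.9 and 50.9 CPM, and its 8 erythroid markers to 2413 against 8.84 and 11.3 CPM. The sum of the 18 genes of a tissue dissociation stress list also moved with the groups. It was 27950 to 38820 CPM in BaPs and 55120 to 62140 CPM in pre-basophils. In mature basophils it was 110100 to 132900 CPM in the BM and 127800 to 150400 CPM in the spleen. Not all 18 genes followed this sum. Hspa8 was at 788 to 1134 CPM in BaPs and 486 to 818 CPM in BM mature basophils. Nfkbia was at 9139 to 10590 CPM in BM mature and 5948 to 6557 CPM in spleen mature basophils. The basophil markers were detected in every library and summed to 61730 to 71280 CPM in pre-basophils, 12930 to 15870 CPM in BM mature basophils and 7091 to 7913 CPM in the spleen. Prss34 and Mcpt8 carried most of the sum in the immature groups, and not all 8 markers followed it, since Gata2 was at 1868 to 1942 CPM in pre-basophils and 2006 to 2455 CPM in BM mature basophils, and Cd200r3 at 907 to 982 and 1088 to 1154 CPM. Of the markers of other cells, those of B cells reached 448 to 763 CPM in the spleen against 49.1 to 82.6 CPM in BM mature basophils, and those of neutrophils reached 1007 to 2670 CPM in the immature groups against 68.2 to 158 CPM in the mature ones. In BaP replicates 1 and 2 most of the neutrophil sum was Mpo, at 1792 and 1402 CPM. Mitochondrial genes took 3.53% of the counts of BaP replicate 3, 1.75% and 1.82% in the other BaPs, 1.53% to 1.64% in pre-basophils, 1.19% to 1.31% in BM mature and at most 1.21% in spleen libraries. The part of these differences in the results was not tested.

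**Figure D1:**
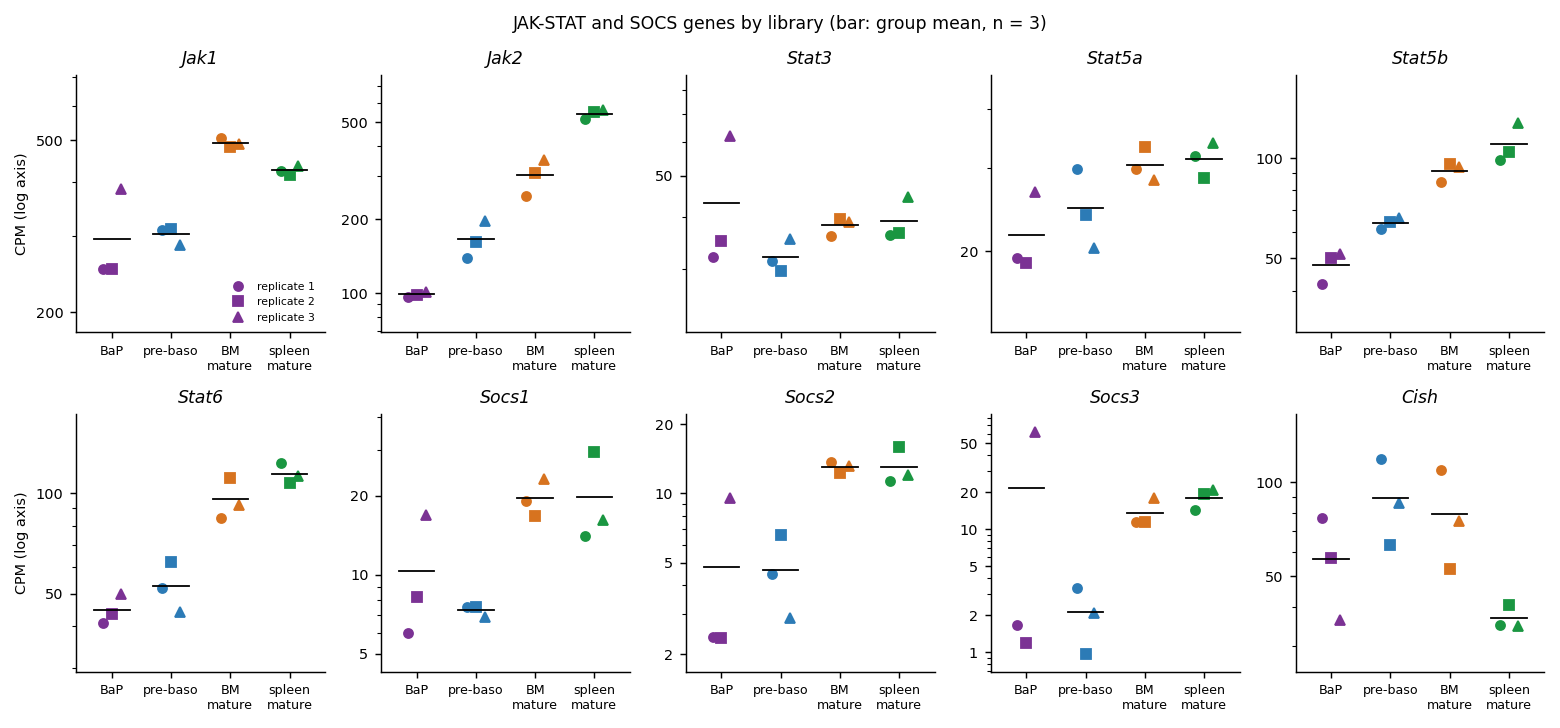
CPM on log axes for each of the 10 genes in the 3 libraries of each group, with the marker shape giving the replicate number and the bar the group mean. Jak2 runs from 96.7 to 100.9 CPM in BaPs and from 513 to 559 CPM in the spleen with no overlap between groups, and Socs3 is at 62.1 CPM in BaP replicate 3 and at 1.67 CPM or less in the other BaPs.

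Jak2, the kinase of the IL-3 receptor, differed at every step of the order from BaPs to the spleen. Jak2 (ENSMUSG00000024789.13, GRCm38 chromosome 19, 29251828 to 29313080, plus strand) stood at 96.7, 98.5 and 100.9 CPM in BaPs, at 139, 161 and 197 CPM in the pre-basophil libraries, at 250, 308 and 349 CPM in BM mature basophils and at 513, 548 and 559 CPM in spleen mature basophils. No 2 groups overlapped. The means were 98.7 ± 2.08, 166 ± 29.3, 303 ± 49.8 and 540 ± 23.8 CPM (SD, n = 3 each).

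Each step of Jak2 passed the test (edgeR's quasi-likelihood test with Benjamini-Hochberg adjustment over the 15083 genes). BaPs were 1.68-fold below pre-basophils (log2 fold change -0.75 ± 0.14 SE, adjusted p 0.00782). Pre-basophils were 1.83-fold below BM mature basophils (-0.87 ± 0.14, adjusted p 0.000551), and spleen mature basophils were 1.78-fold above BM mature basophils (0.83 ± 0.14, adjusted p 0.00583). From BaPs to spleen the difference was 5.47-fold (-2.45 ± 0.15, adjusted p 3.39e-08). The 2 comparisons with BM mature basophils share the BM mature libraries, and the BaP and pre-basophil comparisons share others. Jak2 kept its call in all 4 comparisons under every alternative tried.

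Jak1 (ENSMUSG00000028530.14, chromosome 4, 101152367 to 101265282, minus strand) was split between the immature and the mature groups. It stood at 251.5, 251.3 and 386 CPM in BaPs, 309, 312 and 287 CPM in the pre-basophil libraries, 508, 483 and 490.5 CPM in mature basophils of the BM and 426, 415 and 437 CPM in those of the spleen. All 6 immature libraries lay below all 6 mature ones, while BaPs and pre-basophils overlapped. Pre-basophils were 1.63-fold below BM mature basophils (log2 fold change -0.71 ± 0.15, edgeR adjusted p 0.00273), and -0.48 with library size alone (adjusted p 0.0623). BaPs were 1.44-fold below spleen mature basophils (-0.52 ± 0.15, adjusted p 0.00775), a call that library size alone as the scaling (adjusted p 0.359) and a fit of those 6 libraries alone (0.0552) did not give. The 12 fits that left out 1 library all kept this call, with log2 fold changes from -0.751 to -0.408. BaPs differed from pre-basophils by -0.03 ± 0.15 (95% confidence interval -0.37 to 0.31, adjusted p 0.943). BaP replicate 3 alone lay above the pre-basophils, and the other BaP libraries lay below them. Without BaP replicate 3 the log2 fold change from pre-basophils was -0.259. Spleen and BM mature basophils did not overlap, but their difference of -0.21 ± 0.15 did not pass the test (95% confidence interval -0.55 to 0.12, adjusted p 0.394).

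The relation of the kinases to each other was also read within each library, where scaling between libraries has no part. Jak2 gave 0.385, 0.392 and 0.262 counts per count of Jak1 in BaPs, 0.449, 0.516 and 0.688 in the pre-basophil libraries, 0.493, 0.639 and 0.712 in mature basophils of the BM and 1.21, 1.32 and 1.28 in those of the spleen. In the spleen alone the ratio was above 1. The means were 0.346 ± 0.0732, 0.551 ± 0.123, 0.615 ± 0.112 and 1.27 ± 0.0578 (SD, n = 3 each). An exact two-sided permutation test gave p 0.1, the smallest that 20 assignments allow, for spleen against BM mature basophils, for BaPs against pre-basophils and for BaPs against spleen, and p 0.6 for pre-basophils against BM mature basophils. Taken in same-numbered pairs, an alternative chosen after seeing the data, the ratio was lower in pre-basophils than in BM mature basophils in 3 of 3 pairs and lower in BaPs than in pre-basophils in 3 of 3 pairs (exact paired permutation p 0.25 for each, the smallest possible). No comparison could reach 0.05 in this design, and the 3 smaller values became 0.178 after adjustment over 16 such tests. Per kilobase of transcript, Jak1 was the most abundant of the 10 genes in BaPs (60.4 CPM per kb), pre-basophils (61.7) and BM mature basophils (100.7), and Jak2 in the spleen (107 against 86.9 for Jak1).

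**Figure D2:**
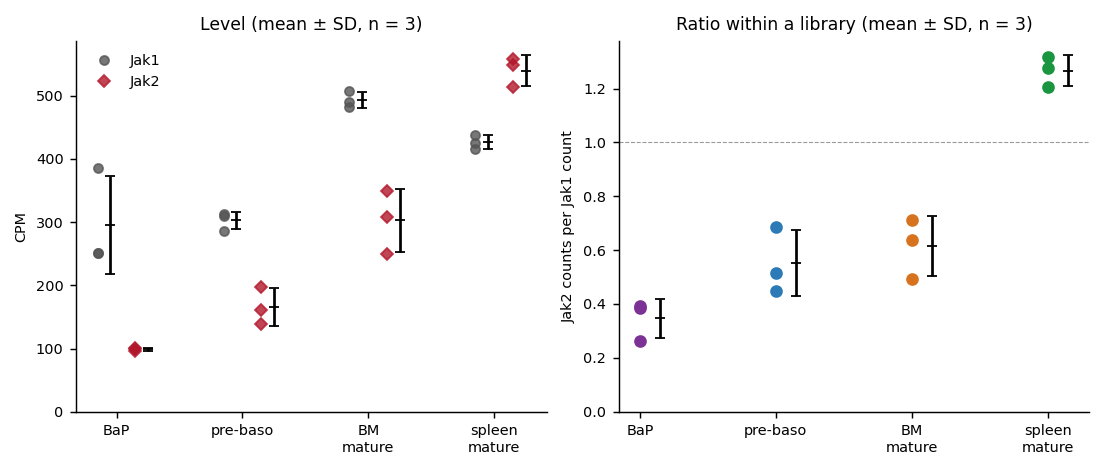
CPM of Jak1 and Jak2 (left) and Jak2 counts per Jak1 count (right) in each library, with the mean ± SD (n = 3) beside the points. Jak2 lies below Jak1 in the 9 bone marrow libraries and above it in the 3 spleen libraries.

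The promoter of Jak2 is shown because Jak2 moved in each comparison. The 250 bases before its start in RefSeq (GRCm38.p6, chr19:29251553-29251802, plus strand) were 80.8% G or C, against a median of 52.4% over 32851 promoters.
Jak2: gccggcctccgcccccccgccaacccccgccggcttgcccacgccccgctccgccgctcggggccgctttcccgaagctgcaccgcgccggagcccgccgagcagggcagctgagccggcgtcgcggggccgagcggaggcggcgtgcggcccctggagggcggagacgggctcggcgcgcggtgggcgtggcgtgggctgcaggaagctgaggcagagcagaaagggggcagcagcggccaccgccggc

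Of the 4 STAT genes, Stat5b and Stat6 were higher in the mature groups, Stat5a was called only in BaPs against spleen, and Stat3 did not pass the test in any comparison. Stat5b (ENSMUSG00000020919.11, chromosome 11, 100780731 to 100850724, minus strand), a main transducer of IL-3 signals, stood at 42.0, 50.2 and 51.5 CPM in BaPs, 61.2, 64.3 and 66.2 CPM in the pre-basophil libraries, 84.7, 96.1 and 93.8 CPM in mature basophils of the BM and 98.6, 104 and 127 CPM in those of the spleen. As for Jak2, no 2 groups overlapped. Pre-basophils were 1.43-fold below BM mature basophils (log2 fold change -0.52 ± 0.13, edgeR adjusted p 0.00813; 0.157 with library size alone) and BaPs were 2.29-fold below spleen mature basophils (-1.20 ± 0.13, adjusted p 4.07e-06). The 2 smaller steps did not pass, at -0.41 ± 0.13 for BaPs against pre-basophils (adjusted p 0.0685) and 0.26 ± 0.13 for spleen against BM mature basophils (adjusted p 0.207). The first of these passed when the replicate number was a block (adjusted p 0.0317) and without BaP replicate 3 (adjusted p 0.0319).

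Stat6 (ENSMUSG00000002147.18, chromosome 10, 127642986 to 127660957, plus strand) stood at 40.8, 43.4 and 49.8 CPM in BaPs, 52.0, 62.1 and 44.0 CPM in the pre-basophil libraries, 84.3, 111 and 92.3 CPM in mature basophils of the BM and 124, 107 and 113 CPM in those of the spleen. The 2 immature groups overlapped each other, as did the 2 mature groups, and the immature libraries all lay below the mature ones. The difference was 1.83-fold between pre-basophils and BM mature basophils (log2 fold change -0.87 ± 0.15, edgeR adjusted p 0.000773) and 2.55-fold between BaPs and spleen mature basophils (-1.35 ± 0.15, adjusted p 5.49e-06).

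Stat5a (ENSMUSG00000004043.14, chromosome 11, 100859351 to 100885169, plus strand), the close paralog of Stat5b, stood at 19.3, 18.9 and 26.7 CPM in BaPs, 29.9, 23.9 and 20.3 CPM in the pre-basophil libraries, 29.9, 33.3 and 28.3 CPM in mature basophils of the BM and 31.8, 28.5 and 33.9 CPM in those of the spleen. Pre-basophils overlapped both BaPs and BM mature basophils, and BaPs lay below the spleen libraries. BaPs against spleen mature basophils gave -0.52 ± 0.17 (edgeR adjusted p 0.0196), a call that was lost without BaP replicate 1 (adjusted p 0.0752), BaP replicate 2 (0.0825) or spleen replicate 3 (0.0633), with library size alone (-0.20, adjusted p 0.418), under repeated TMM with a likelihood ratio test (0.0682) and from the 6 compared libraries (0.0532). Over the 12 fits that left out 1 library, this log2 fold change ran from -0.708 to -0.419. BaP replicate 3 stood at 1.4 times the mean of the other BaP libraries for Stat5a. Of the 50-base stretches of the Stat5a transcript, 15.8% also occur in Stat5b, so the split of reads between these paralogs is uncertain. Their sum, which the split does not touch, was 69.6 ± 8.43 CPM in BaPs, 88.6 ± 2.34 in pre-basophils, 122 ± 7.44 in mature basophils of the BM and 141 ± 16.9 in those of the spleen (SD, n = 3), again with no overlap between groups.

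Stat3 (ENSMUSG00000004040.16, chromosome 11, 100885098 to 100939540, minus strand), which transduces IL-6 and IL-10, stayed between 29.7 and 44.6 CPM in 11 libraries and was at 62.2 CPM in BaP replicate 3. Its log2 fold changes ran from -0.24 to 0.44 over the 4 comparisons, with edgeR adjusted p between 0.230 and 0.940. The end of Stat3 overlaps exons of Stat5a on the other strand, and whether counting used the strand is not known from the sources used here. The same limit holds for Jak1 with Raver2, for Stat6 with Nab2 and for Cish with Gm17040 and Gm17041.

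The feedback inhibitors were counted at low levels, apart from Cish. Socs1 (ENSMUSG00000038037.5, chromosome 16, 10782240 to 10785536, minus strand), which binds and blocks JAK kinases directly, stood at 5.97, 8.25 and 16.8 CPM in BaPs, 7.55, 7.55 and 6.88 CPM in the pre-basophil libraries, 19.1, 16.8 and 23.2 CPM in mature basophils of the BM and 14.1, 29.4 and 16.2 CPM in those of the spleen. Pre-basophils lay below every mature library and were 2.71-fold below BM mature basophils (log2 fold change -1.44 ± 0.36, edgeR adjusted p 0.00946). BaPs overlapped the mature groups through replicate 3, and their difference from spleen of -0.87 ± 0.33 (adjusted p 0.0402) was lost in 7 of the 12 fits that left out 1 library. These left out BaP replicate 1 or 2, pre-basophil replicate 1 or 2, BM mature replicate 1 or 2, or spleen replicate 2, with adjusted p between 0.0502 and 0.227. It was also lost with library size alone (-0.53, adjusted p 0.231), in limma-voom (0.0586) and from the 6 compared libraries (0.122). Without BaP replicate 3 the difference was -1.46 (adjusted p 0.000479).

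Socs2 (ENSMUSG00000020027.18, chromosome 10, 95385362 to 95417180, minus strand), best known for limiting growth hormone signals through STAT5, stood at 2.39, 2.36 and 9.59 CPM in BaPs, 4.47, 6.57 and 2.88 CPM in the pre-basophil libraries, 13.7, 12.3 and 13.1 CPM in mature basophils of the BM and 11.4, 15.8 and 12.1 CPM in those of the spleen. All immature libraries lay below all mature ones. These levels rest on as few as 10 counts in a BaP library and 16 in a pre-basophil library. Pre-basophils were 2.86-fold below BM mature basophils (log2 fold change -1.52 ± 0.45, edgeR adjusted p 0.0232), but the call was lost in 5 of 12 fits without 1 library (without pre-basophil replicate 1 or 3, or any BM mature replicate), with adjusted p between 0.0526 and 0.106. BaPs were 2.47-fold below spleen mature basophils (-1.31 ± 0.42, adjusted p 0.0171), a call that was lost without BaP replicate 1 (0.0567), BaP replicate 2 (0.0582) or spleen replicate 2 (0.0584), with library size alone (0.0919) and from the 6 compared libraries (0.0601). Without BaP replicate 3 it was -2.44 (adjusted p 6.18e-06). Of the 50-base stretches of the Socs2 transcript, 18.4% are shared with Gm9847.

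Socs3 (ENSMUSG00000053113.3, chromosome 11, 117966079 to 117970047, minus strand), an inhibitor of gp130 cytokine receptors, depended on 1 library. It stood at 1.67, 1.18 and 62.1 CPM in BaPs (7, 5 and 641 counts), 3.35, 0.974 and 2.08 CPM in the pre-basophil libraries, 11.5, 11.5 and 18.0 CPM in mature basophils of the BM and 14.2, 19.3 and 20.7 CPM in those of the spleen. Aside from BaP replicate 3, all immature libraries lay below all mature ones. The value of BaP replicate 3 was 43.5 times the mean of the other BaP libraries, against 4.04 times for Socs2, 2.37 times for Socs1 and 0.539 times for Cish. Of all tested genes, 9.78% were at least 2-fold higher in that library and 3.91% at least 2-fold lower.

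With all libraries, pre-basophils against BM mature basophils gave -2.71 ± 1.15 for Socs3 (edgeR adjusted p 0.0967). Leaving out BaP replicate 3 gave adjusted p 4.04e-06 for the same comparison, leaving out BaP replicate 1 or 2 gave 0.0454 and 0.0412, and a fit of the 6 compared libraries alone gave 5.41e-05. For BaPs against spleen mature basophils the direction turned with that library, from 0.36 ± 0.84 (adjusted p 0.733) to -3.64 (adjusted p 4.5e-07) without it. For BaPs against pre-basophils the log2 fold change went from 3.46 ± 1.10 (adjusted p 0.0728) to -0.54 (adjusted p 0.579).

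The promoter of Socs3 is shown because it alone among those of 9 matched genes (11 promoters; Socs2 had no entry) held the palindrome TTCNNNGAA, to which STAT dimers bind, within 250 bases before the start. The match, in capitals, lies 154 to 146 bases before the RefSeq start, and 7.02% of all 32851 promoters hold this motif in a window of the same length. A variant with 1 more base at its centre was in 5.85% of promoters and in none of these 11 windows. Both motifs read the same on either strand. The stretch printed, GRCm38.p6 chr11:117969452-117969616 on the minus strand, is the part of the window that holds no Socs3 exon in GENCODE M21, where some transcripts of the gene begin farther upstream.
Socs3: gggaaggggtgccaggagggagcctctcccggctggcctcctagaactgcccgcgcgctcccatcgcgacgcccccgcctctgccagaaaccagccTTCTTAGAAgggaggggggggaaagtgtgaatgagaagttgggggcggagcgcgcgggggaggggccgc

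Cish (ENSMUSG00000032578.7, chromosome 9, 107296026 to 107302784, plus strand), a direct STAT5 target that limits cytokine receptor signals, had its lowest mean in the spleen, unlike the other genes. It stood at 76.7, 57.3 and 36.1 CPM in BaPs, 118, 63.0 and 86.0 CPM in the pre-basophil libraries, 110, 52.8 and 75.3 CPM in mature basophils of the BM and 34.9, 40.6 and 34.7 CPM in those of the spleen. The 3 bone marrow groups overlapped, and spleen libraries lay below all BM mature and pre-basophil libraries. Spleen mature basophils were 2.15-fold below BM mature basophils (log2 fold change -1.11 ± 0.30, edgeR adjusted p 0.0383). This call was lost in 6 of 12 fits that left out 1 library (pre-basophil replicate 3, BM mature replicate 1 or 3, or any spleen replicate), with adjusted p between 0.0551 and 0.168, and in limma-voom (0.0544). BaPs against spleen gave 0.61 ± 0.30 (adjusted p 0.0935). That comparison was called without BaP replicate 3 (adjusted p 0.0057), with library size alone (0.88, adjusted p 0.0102), under repeated TMM (0.77, adjusted p 0.035) and with no filter (0.60, adjusted p 0.00135).

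**Figure D3:**
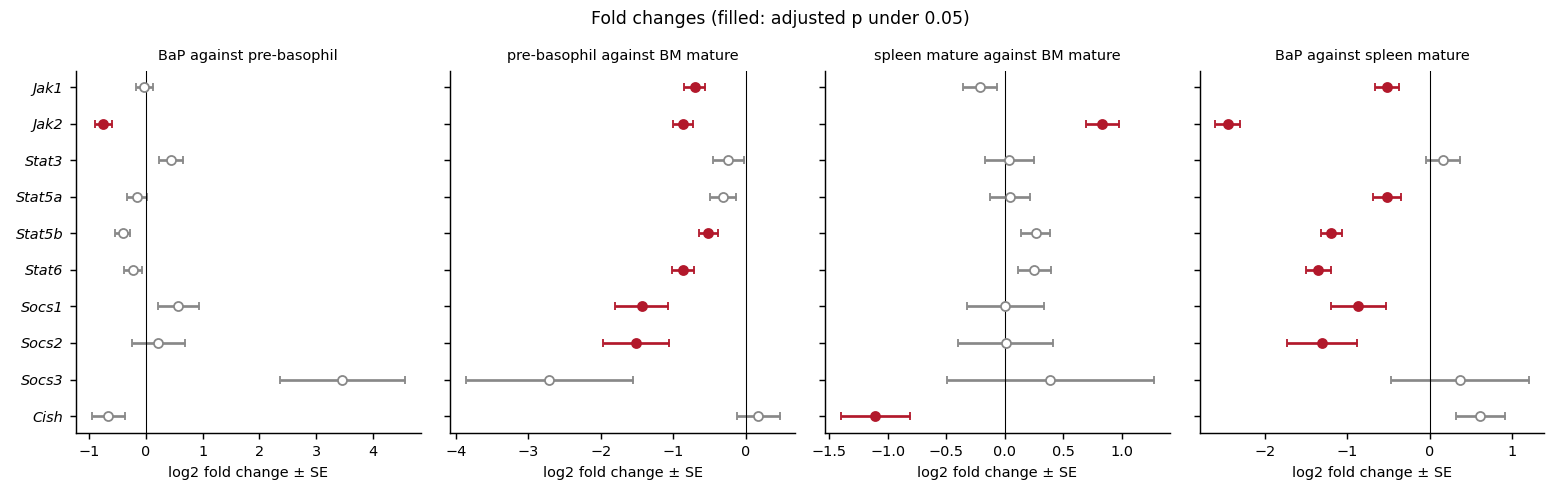
Log2 fold change ± SE of each gene in the 4 comparisons, positive where the first-named group is higher, with filled points where the edgeR adjusted p is under 0.05. Each panel has its own scale. Jak2 is filled in all 4 panels, and all 6 filled genes of the second panel lie below 0. That panel holds pre-basophils against BM mature basophils, where 11% of all tested genes were called lower and 16.3% higher.

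Across the 10 genes, the step from pre-basophils to BM mature basophils held most of the calls within the bone marrow. In pre-basophils, 6 genes were lower (Jak1, Jak2, Stat5b, Stat6, Socs1 and Socs2) and none higher, where 27.3% of all tested genes were called, 11% lower and 16.3% higher. The median log2 fold change of the 10 genes was -0.79, against -0.004 over all tested genes. The groups did not overlap for 8 of the 10 genes, against 47% of all tested genes. Because the 10 genes were chosen with earlier results of these data known, these contrasts describe the set and test nothing. With library size alone as the scaling, the median of all genes moved to 0.22 and the calls of Jak1, Stat5b and Socs2 were lost, with all 3 still below 0.

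Between BaPs and pre-basophils only Jak2 was called among the 10 genes, where 7.08% of all tested genes were called, 4.29% lower and 2.79% higher. The groups did not overlap for 2 of them, Jak2 and Stat5b, against 25.1% of all genes. Between spleen and BM mature basophils Jak2 was higher and Cish lower in the spleen, where 7.83% of all tested genes were called, 3.16% higher and 4.67% lower, and 4 of the 10 did not overlap, against 33.7% of all genes. Between BaPs and spleen mature basophils 7 genes were lower in BaPs and none higher, where 54.5% of all tested genes were called, 24.6% lower and 29.8% higher, and 6 of the 10 did not overlap, against 59.9%. The test of any difference among the 4 groups called 8 genes, all but Stat3 (adjusted p 0.32) and Socs3 (adjusted p 0.075), against 57.8% of all tested genes.

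Other ratios between relatives were read within each library in the same way. Stat6 had 1.11 ± 0.266 counts per count of Stat3 in BaPs, 1.67 ± 0.423 in pre-basophils, 2.51 ± 0.259 in mature basophils of the BM and 2.96 ± 0.445 in those of the spleen (SD, n = 3). Socs2 had 0.355 ± 0.0327 counts per count of Cish in the spleen and 0.177 ± 0.0539 in BM mature basophils, without overlap. For the latter pair and for Stat6 in pre-basophils against BM mature basophils the exact two-sided permutation p was 0.1, the smallest possible, and 0.178 adjusted over the 16 tests.

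Upstream of the kinases, of 25 listed cytokine receptor chains 21 could be tested. In pre-basophils against BM mature basophils, 7 were lower and none higher (33.3% called). Of all tested genes 27.3% were called in this comparison, 11% lower and 16.3% higher. Il10ra, the ligand-binding chain for IL-10, was at 6.58 ± 2.18 CPM in the former and 37.5 ± 3.99 CPM in the latter (SD, n = 3; log2 fold change -2.47 ± 0.49, edgeR adjusted p 0.00202). Il7r, which binds IL-7 and thymic stromal lymphopoietin with partner chains, was at 36.7 ± 8.31 and 144 ± 13.7 CPM (-1.97 ± 0.45, adjusted p 0.00479). In BaPs against pre-basophils 3 were lower, Csf2rb, Csf2rb2 and Ifnar2, and none higher (14.3% called). Of all tested genes 7.08% were called, 4.29% lower and 2.79% higher. Between spleen and BM mature basophils none was called, against 7.83% of all tested genes. BaPs against spleen gave 7 lower and 2 higher, the latter being Ifngr1 and Csf2ra (42.9% called). Of all tested genes 54.5% were called there, 24.6% lower and 29.8% higher. Ifngr1 rested on BaP replicate 3, and fell from 1.74 ± 0.52 (adjusted p 0.0117) to 0.30 (adjusted p 0.141) without it.

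The β chains that carry JAK2 were lower in BaPs than in pre-basophils and lower in pre-basophils than in BM mature basophils. Csf2rb, the β chain shared by the receptors of IL-3, IL-5 and GM-CSF and the most abundant receptor gene listed, had 346 ± 84.9 CPM in BaPs, 687 ± 16.1 in pre-basophils, 1233 ± 47.5 in mature basophils of the BM and 1443 ± 30.1 in those of the spleen (SD, n = 3). Csf2rb2, the IL-3-specific β chain, had 113 ± 25.4, 248 ± 10.3, 471 ± 14.7 and 517 ± 5.73 CPM. BaPs against pre-basophils gave -0.99 ± 0.15 for Csf2rb (edgeR adjusted p 0.00178) and -1.14 ± 0.14 for Csf2rb2 (adjusted p 0.000558). Pre-basophils against BM mature basophils gave -0.84 ± 0.15 (adjusted p 0.000908) and -0.93 ± 0.14 (adjusted p 0.000307). Spleen and BM mature basophils differed by 0.23 ± 0.15 for Csf2rb (adjusted p 0.37) and 0.14 ± 0.14 for Csf2rb2 (adjusted p 0.583). Reads of these near-identical paralogs may have been split between them. Csf2ra, the GM-CSF-specific chain, was higher in BaPs than in the spleen, at 29.9 ± 4.53 and 13.3 ± 1.66 CPM (1.16 ± 0.21, adjusted p 0.000359), and was not called in the other 3 comparisons.

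Of 9 adaptors that act at the IL-3 receptor, 3 were lower in pre-basophils than in BM mature basophils and 6 were lower in BaPs than in the spleen, with none higher in either. These shares were 33.3% and 66.7%. Of all tested genes 27.3% and 54.5% were called in these comparisons, 11% and 24.6% lower and 16.3% and 29.8% higher. Of the 3, Stam2 (-0.52 ± 0.17, edgeR adjusted p 0.0338) lost its call in 6 of 12 fits without 1 library (any pre-basophil or BM mature replicate), with library size alone (-0.30, adjusted p 0.171), under repeated TMM (0.13), with no filter (0.106) and in DESeq2 (0.0585). In BaPs against pre-basophils 1 was lower (11.1%, where 4.29% of all tested genes were lower). None was called between spleen and BM mature basophils, against 7.83% of all tested genes. Gab2, which links the β chain to phosphoinositide 3-kinase, was at 87.1 ± 12.7 CPM in BaPs, 164 ± 4.45 in pre-basophils, 264 ± 12.8 in mature basophils of the BM and 244 ± 24.4 in those of the spleen. It was lower in BaPs than in pre-basophils (-0.92 ± 0.12, edgeR adjusted p 0.000929) and in pre-basophils than in BM mature basophils (-0.69 ± 0.12, adjusted p 0.000925). Grb2, the most abundant adaptor listed, had group means between 216 and 266 CPM.

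Of 9 other phosphatases and adaptors that limit JAKs, 5 were called in the 4-group test (55.6%, against 57.8% of all genes) and 4 in BaPs against spleen (44.4%, against 54.5%). None was called in pre-basophils against BM mature basophils or in BaPs against pre-basophils, by edgeR at the adjusted threshold. Of all tested genes 27.3% and 7.08% were called there. In spleen against BM mature basophils 1 was called (11.1%, against 7.83% of all tested genes). Ptpn6, which encodes the phosphatase SHP-1, was higher in spleen than in BM mature basophils, with 132 ± 3.07 and 80.7 ± 5.53 CPM (0.71 ± 0.11, edgeR adjusted p 0.00293). In BaPs against spleen, Ptpn2 (0.69 ± 0.20, adjusted p 0.0109) and Ptpn11 (0.51 ± 0.16, adjusted p 0.0136) were higher, and Ptpn6 and Sh2b3 lower. The call of Sh2b3 was lost with library size alone (-0.638, adjusted p 0.0819). Without spleen replicate 3 neither Ptpn2 (adjusted p 0.0597) nor Ptpn11 (0.0621) was called, nor was Ptpn11 without spleen replicate 1 (0.0653). Of 8 further SOCS and PIAS genes, 1 was called in each BaP comparison (12.5%) and none in the other 2 comparisons. Of all tested genes 7.08% were called in BaPs against pre-basophils, 54.5% in BaPs against spleen, and 27.3% and 7.83% in the others. The genes called were Socs6, higher in BaPs than in pre-basophils (0.98 ± 0.28, adjusted p 0.0475), and Socs5, higher in BaPs than in spleen (1.21 ± 0.43, adjusted p 0.0293). Both were below 10 CPM and named after their values were seen. Of the 5 other kinases and STATs, only Stat4, known for IL-12 signals, was called in pre-basophils against BM mature basophils, at 17.3 ± 3.14 and 38.6 ± 6.99 CPM (-1.15 ± 0.38, adjusted p 0.0379). That was 20% of this list, against 27.3% of all tested genes. The Stat4 call was lost in 9 of 12 fits that left out 1 library (any pre-basophil, BM mature or spleen replicate), with adjusted p between 0.0505 and 0.132. It was also lost with library size alone (-0.925, adjusted p 0.121). In BaPs against spleen, 2 of the 5 were lower, Stat4 (-1.24 ± 0.36, edgeR adjusted p 0.00935) and Stat2 (-0.64 ± 0.165, adjusted p 0.00482). That was 40% of this list, against 54.5% of all tested genes. With library size alone both calls were lost (adjusted p 0.0715 and 0.134). None of the 5 was called in the other comparisons, against 7.08% and 7.83% of all tested genes.

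Downstream, 12 of 13 genes reported elsewhere as STAT5 targets could be tested, and called genes lay in both directions. In pre-basophils against BM mature basophils 1 was higher and 3 lower, in BaPs against pre-basophils 2 higher and 1 lower, in spleen against BM mature basophils 1 each way, and in BaPs against spleen 1 higher and 5 lower. The shares called were 33.3%, 25%, 16.7% and 50% in this order, against 27.3%, 7.08%, 7.83% and 54.5% of all tested genes. Osm, the cytokine oncostatin M and the most abundant of them, was at 596 ± 101.3 CPM in BaPs, 1373 ± 139 in pre-basophils, 4013 ± 154 in mature basophils of the BM and 2976 ± 849 in those of the spleen. It was 2.30-fold lower in BaPs than in pre-basophils (edgeR adjusted p 0.00178) and 2.92-fold lower in pre-basophils than in BM mature basophils (adjusted p 4.11e-05). Of the cell cycle genes, Ccnd3 was higher in pre-basophils than in BM mature basophils (0.79 ± 0.14, adjusted p 0.00092) and Ccnd2 lower (-0.91 ± 0.22, adjusted p 0.00826), the latter call being lost with library size alone (-0.69, adjusted p 0.0699). Ccnd2 was higher in BaPs than in pre-basophils (0.94 ± 0.22, adjusted p 0.0237), a call that was lost without any 1 pre-basophil library (adjusted p 0.0707 to 0.0947) and from the 6 compared libraries (0.105).

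Myc, a driver of cell growth, was high at both ends of the lineage, with 41.0 ± 5.73 CPM in BaPs, 16.1 ± 1.22 in pre-basophils, 18.2 ± 4.64 in mature basophils of the BM and 57.5 ± 9.27 in those of the spleen. BaPs exceeded pre-basophils by 1.35 ± 0.19 (edgeR adjusted p 0.0012) and spleen exceeded BM mature basophils by 1.66 ± 0.19 (adjusted p 0.000747). Pim1, a survival kinase, was lower in spleen than in BM mature basophils, with 468 ± 46.1 and 704 ± 163 CPM (-0.59 ± 0.16, adjusted p 0.0353). This call was lost in 6 of 12 fits without 1 library (pre-basophil replicate 3, BM mature replicate 1 or 3, or any spleen replicate), with adjusted p between 0.0521 and 0.151. It was also lost with library size alone (-0.448, adjusted p 0.072). In pre-basophils Pim1 was at 398 ± 52.4 CPM, lower than in BM mature basophils (-0.82 ± 0.155, edgeR adjusted p 0.00146). Pim1 was also lower in BaPs than in the spleen (-0.75 ± 0.155, adjusted p 0.00109). It was not called in BaPs against pre-basophils (adjusted p 0.0609).

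**Figure D4:**
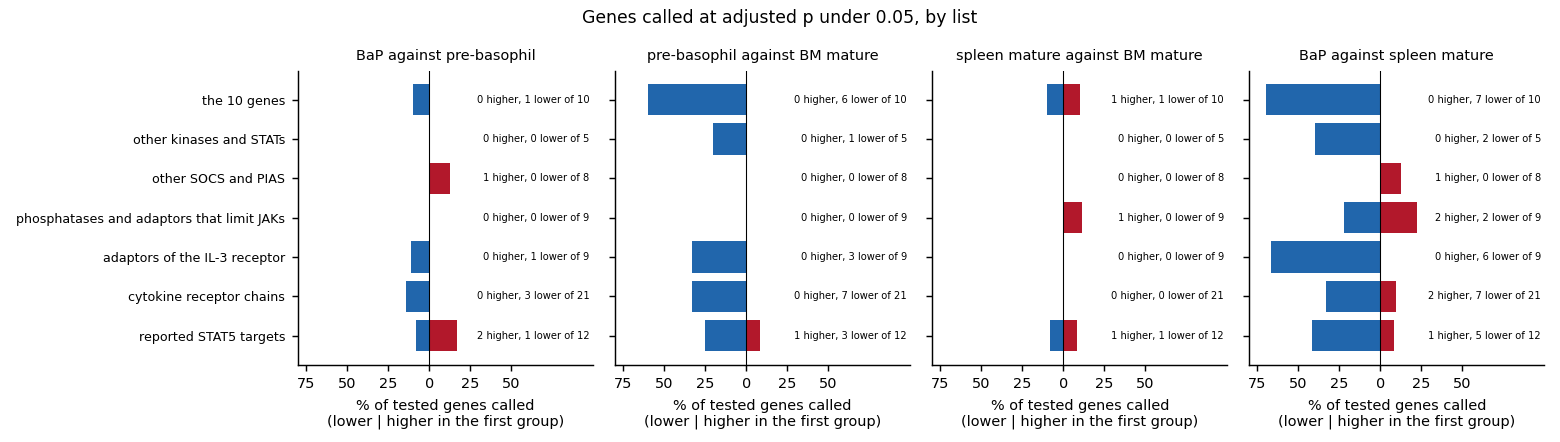
Percent of tested genes called at an edgeR adjusted p under 0.05 in each list and comparison, with bars to the left for genes lower and to the right for genes higher in the first-named group. In pre-basophils against BM mature basophils, 6 of the 10 genes, 3 of 9 adaptors and 7 of 21 receptor chains are lower, and no gene of these lists is higher. Of all tested genes 11% are lower and 16.3% higher in this comparison, shares that are not drawn.

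The genes most like each of the 8 that differed among the groups were sought by Pearson's r of log2 CPM over the 12 libraries, among tested genes with a mean of at least 10 CPM. These values describe 4 groups rather than 12 independent points. Jak2 was closest to Ctsd (r = 0.989) and Rassf3 (0.988), Stat5b to Akap8l and Ctsd (both 0.989), Stat6 to Tle3 and Otud5 (both 0.985) and Jak1 to Zfp292 (0.973) and Macf1 (0.971). Socs2 was closest to Nfat5 (0.971) and Mmd (0.969), Cish to Vim (0.953) and Fuca2 (0.951), Socs1 to Sp4 (0.944) and Mdm4 (0.921), and Stat5a to Eps8l1 (0.916) and Rlf (0.909). Among the 10 genes themselves the largest value was that of Jak2 with Stat5b (0.969), and that of Jak2 with Cish was -0.41.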

How the data were processed

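The deposited values were raw read counts per gene for 12 libraries of 4 groups. The authors captured polyadenylated RNA from sorted cells, amplified it by the TAS-Seq workflow, trimmed reads with Cutadapt 3.4, mapped them to reference RNA with Bowtie2 2.4.2 and counted them. The study's methods name GRCm38 and the submitters' processing notes GRCm39, so coordinates given here are those of GENCODE M21 (GRCm38). Strand use, multi-mapping and molecular identifiers are not given in the sources used here, so PCR copies may count as reads.

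Counts were filtered with filterByExpr, scaled by TMM (factors 0.844 to 1.30) and fitted for all libraries together in edgeR 4.0.16 (R 4.3.3). An adjusted p under 0.05 was called. The SE was the absolute log2 fold change divided by the square root of the F statistic. Confidence intervals took only the residual degrees of freedom of the fit, fewer than the test used. They are therefore wider than the unadjusted test implies. The script was tested on simulated data. Log2 CPM took a prior count of 2. Levels per kb used the length of 1 transcript a gene.

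Genes named beyond the 10 were the most abundant of each list and, in each comparison, up to 2 called genes at each extreme with at least 10 CPM. The 10 genes and the lists were chosen with earlier results of these data known.

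Whether replicate numbers pair libraries was checked from deviations from group means. Same-numbered libraries correlated by 0.138 to 0.223 for pre-basophils with BM mature basophils and by 0.125 to 0.262 for BaPs with pre-basophils. In the comparisons with spleen they correlated by 0 to 0.039. The main fit and the main ratio tests took the libraries as unpaired. A pairing of the bone marrow libraries, a hint from the data, entered only through the replicate block and the ratio test in same-numbered pairs. Alternatives were other scalings, no filter, DESeq2 1.42.0, limma-voom 3.58.1, the replicate block, leaving out each library and fits of the compared libraries alone.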

Additional observations from a re-analysis of the deposited data

How the results depend on the processing

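Over all values recomputed under the alternatives, 1468 kept their direction and side of the threshold, 95 lost their call, 23 gained one and 38 changed sign. DESeq2 gave no adjusted p for Socs3. The main fit called 27.3% of all tested genes in pre-basophils against BM mature basophils and 7.08% in BaPs against pre-basophils. It called 7.83% in spleen against BM mature basophils, 54.5% in BaPs against spleen and 57.8% among the 4 groups. Calls over all genes also moved with the setting, as given in the next paragraph. A changed count below is therefore not particular to the 10 genes. Of the 10 genes, library size alone called 3 in pre-basophils against BM mature basophils, 2 in BaPs against pre-basophils, 4 in BaPs against spleen and 5 among the 4 groups. The median of all genes stood at 0.22, 0.23 and 0.33 on the log2 scale in these pairwise comparisons. BaPs against pre-basophils gave 2 under repeated TMM with a likelihood ratio test, 3 with no filter and 2 with the replicate block. Limma-voom called 1 in spleen against BM mature basophils, and a fit of the 6 compared libraries alone called 3 in BaPs against spleen. Leaving out 1 library gave 5 to 7 in pre-basophils against BM mature basophils, 1 to 2 in BaPs against pre-basophils, 1 to 2 in spleen against BM mature basophils, 4 to 9 in BaPs against spleen and 7 to 9 among the 4 groups. The replicate block changed the call of Stat5b in BaPs against pre-basophils and no other call of the 10 genes in the comparisons within the BM. The cause was not tested.

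Over all genes, BaPs against pre-basophils gave 1068 calls, 1620 with library size alone, 2091 with no filter, 375 from the 6 compared libraries, 1831 without BaP replicate 3 and 382 to 471 without a pre-basophil library. Spleen against BM mature basophils gave 1181 calls, 1796 with no filter, 2340 from the 6 compared libraries, 2653 without BaP replicate 3 and 241 to 757 without a BM mature or spleen library.

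The changes of sign concerned values of the 10 genes that had not passed the test, given here as log2 fold changes. In spleen against BM mature basophils, Socs1 was at -0.00387 and Socs2 at -0.000494 with DESeq2's size factors, at -0.000276 and -0.000302 in DESeq2, at -0.0439 and -0.0443 under repeated TMM, and at -0.085 and -0.0138 in limma-voom. Socs1 was also at -0.00363 with the replicate block and at -0.0104 from the 6 compared libraries, and repeated TMM gave Stat3 -0.0174 and Stat5a -0.00704. With library size alone, Jak1 was at 0.195 and Stat5a at 0.0617 in BaPs against pre-basophils. Socs3 in BaPs against spleen was at -0.913 in limma-voom and -0.43 with the replicate block.

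With 1 library left out, spleen against BM mature basophils ran from -0.0651 to 0.0954 for Stat3, -0.00734 to 0.115 for Stat5a, -0.379 to 0.205 for Socs1 and -0.145 to 0.105 for Socs2. BaPs against pre-basophils ran from -0.259 to 0.0744 for Jak1, -0.025 to 0.831 for Socs1, -0.899 to 0.547 for Socs2 and -0.537 to 3.98 for Socs3. BaPs against spleen ran from -0.216 to 0.338 for Stat3 and from -3.64 to 0.89 for Socs3, and pre-basophils against BM mature basophils from -0.0803 to 0.47 for Cish. The lowest value for Jak1, Socs1, Socs2 and Socs3 in BaPs against pre-basophils, and for Stat3 and Socs3 in BaPs against spleen, came without BaP replicate 3.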
